A study of Drosophila melanogaster with 16 samples.

Results

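The genes that encode Mediator, the TAF proteins, the TfII factors and the subunits of RNA polymerases I, II and III were placed on a map of chromatin boundaries and loops of the Drosophila melanogaster embryo. They were taken by symbol, as protein-coding genes whose symbol begins with MED, Taf or Polr and a digit or with TfII. That rule was set with earlier results of these data known. It gave 79 genes of the 13922 protein-coding genes on the arms 2L, 2R, 3L, 3R, 4 and X. They comprise 25 Mediator genes, 15 Taf genes, 9 TfII genes, and 7, 13 and 10 genes named for RNA polymerase I, II and III. Genes of the same machinery with other names, such as Tbp or the Mediator kinase gene Cdk8, are not among the 79 and are given separately near the end.

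The map was made by Micro-C, a chromosome conformation assay in which micrococcal nuclease trims fixed chromatin down to nucleosomes before ligation, so that sequenced pairs of fragments report contacts. The study holds 16 samples of embryos at nuclear cycle 14, the stage of cellularisation and of the main onset of zygotic transcription. Only the 2 samples of the control line yw, labelled as wild type, bear on the values below, and the 14 samples of edited lines were not used here. Each control sample was a pool of hand-sorted embryos of many cells, so a boundary or loop is an average over the embryo.

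The deposited control lists held 1930 boundaries of 400 bp on the compared arms, each with a strength score, and 313 loops, each with a value. Neither list has a column per sample. No value has a replicate error, the depth behind each is unknown, and no test of a difference was made. Each count is set beside the same count over all protein-coding genes. The boundary list holds no strength below 1.2502, so a gene without a listed boundary may still have a weaker one. The genes were placed with a table that gives no strand, so an end near a boundary may be the start or the 3' end of the gene.

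Most of these genes serve nearly every cell. RNA polymerase II transcribes messenger RNA, polymerase I the large ribosomal RNA and polymerase III transfer RNA and other small RNAs. TFIID, made of the TATA-binding protein and TAFs, and the other general factors bring polymerase II to promoters, and Mediator passes signals from enhancer-bound activators to it. In flies, boundaries of contact domains are known to lie often at promoters of widely expressed genes, where insulator proteins such as BEAF-32 bind.

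Of the 79 genes, 22 (27.8%) stood with 1 or both ends within 1 kb of a boundary, where the share over all protein-coding genes was 18.2%. The share ran from 36.0% of the Mediator genes (9 of 25) through 33.3% of the TfII genes (3 of 9), 28.6% for polymerase I (2 of 7), 26.7% of the Taf genes (4 of 15) and 23.1% for polymerase II (3 of 13) to 10.0% for polymerase III (1 of 10). With so few genes in each complex, these shares differ by a handful of genes and their order is a description only. The median distance from the nearer gene end to a boundary was 9.28 kb, with quartiles of 0.618 and 28.6 kb, against a median of 14.3 kb and quartiles of 3.01 and 40.4 kb over all protein-coding genes. Within 10 kb of a boundary were 42 of the 79 (53.2%), beside 42.2% of all genes. At the far end the values came together, with 14 members (17.7%) more than 50 kb from any listed boundary, beside 19.9% of all genes.

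**Figure D1:**
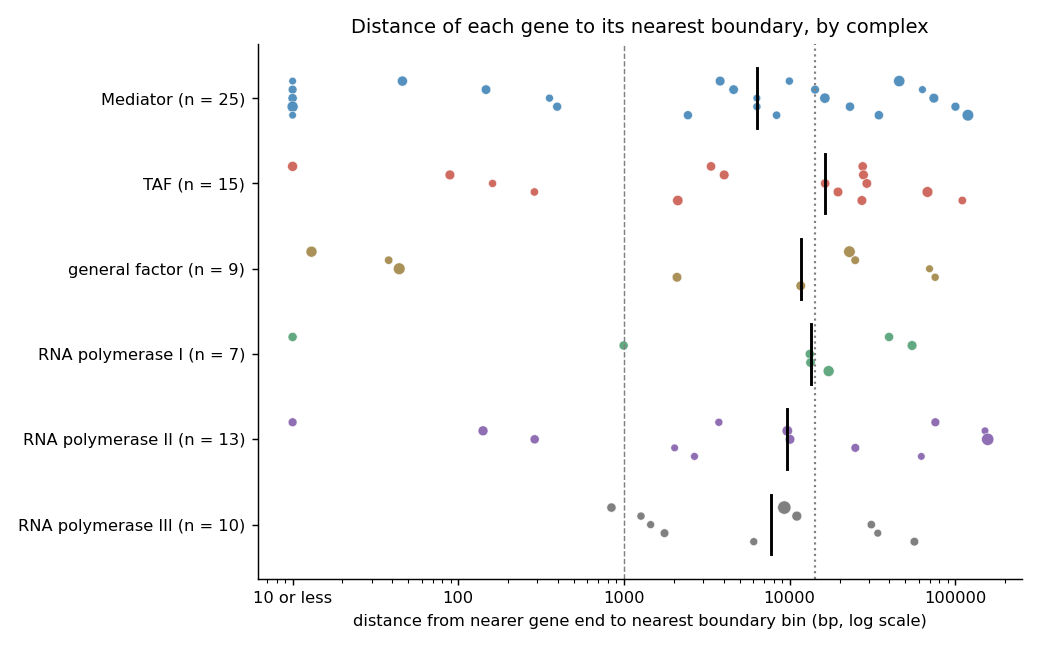
Distance from the nearer end of each of the 79 genes to the nearest boundary bin, in bp on a log scale, by complex. Each point is a gene, larger points have a stronger nearest boundary, genes with an end inside a bin are drawn at 10 bp, black bars are medians, the dashed line marks 1 kb and the dotted line the median of all protein-coding genes (14.3 kb). Points fall on both sides of the 1 kb line in every complex, with 1 gene of polymerase III inside it.

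Most of the near genes were very near, as were most near genes over all protein-coding genes. Of the 22 members within 1 kb, 20 were within 500 bp. Over all protein-coding genes, 2209 of the 2536 within 1 kb were. In 8 members an end lay inside the boundary bin itself (10.1%, beside 7.14% of all genes). The members just inside 1 kb were Polr3E (840 bp) and Polr1E (995 bp). Those just outside were Polr3K (1266 bp), Polr3D (1448 bp) and Polr3A (1756 bp). All 3 belong to polymerase III, so that 4 of its 10 genes were within 2 kb, where the share of all genes was 21.6%.

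Mediator supplied the most genes at boundaries. MED4, of the middle module, had its right end in a boundary of strength 2.16, the strongest beside a Mediator gene. MED14, the scaffold that links the modules, lay 46 bp from a boundary of strength 1.90, which had no other protein-coding gene end within 1 kb. The next gene on the far side, Kah, ended 3971 bp before MED14. MED25 stood 147 bp from a boundary of 1.73 that overlapped the end of Hs6st, a heparan sulfate sulfotransferase gene. MED21 (1.65), MED19 (1.54), MED16 (1.27) and MED9 (1.26) each had an end inside a boundary bin, and MED8 (1.58) and MED1 (1.35) lay 395 and 355 bp away. The boundaries of MED16 and MED9 are close to the lower limit of the list.

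By module, 4 of the 7 genes of the Mediator middle were at a boundary (MED1, MED4, MED9 and MED21), and their 7 distances had a median of 0.355 kb. Of the 7 head genes MED8 was, with a median of 8.34 kb over the module. Of the 4 tail genes MED15, MED16, MED23 and MED24, MED16 was. The share over all protein-coding genes was 18.2%. With so few genes in each module, these counts are a description only. The middle was not uniform, since MED10 lay 100.1 kb, MED7 63.3 kb and MED31 16.3 kb from a boundary. These modules were separated after the values had been seen, and MED14, MED19, MED25, MED26, MED27, MED28 and MED30 were left out of them.

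Among the Taf genes, Taf4, Taf1, Taf9 and Taf6 were at boundaries. Taf4, a structural subunit of TFIID, had its left end in a boundary of strength 1.88, with Zn72D, an RNA-binding protein gene, ending 585 bp before it. Taf1, the largest subunit, lay 89 bp from a boundary of 1.79, with Ass as the next gene beyond it, in a domain of 10.8 kb. Taf9 (161 bp, strength 1.37) and Taf6 (288 bp, 1.41) encode a histone-fold pair. The boundary beside Taf6 overlapped the end of ash1, a histone methyltransferase gene of the Trithorax group, which ended 332 bp before Taf6. Next in distance were Taf5 (2112 bp), Taf13 (3352 bp) and Taf11 (4024 bp). The remaining 8 Taf genes lay 16.4 to 110.1 kb away. The farthest was Taf12L, a paralog of Taf12 that acts in the testis, at 110.1 kb, while Taf12 itself was at 27.6 kb.

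The TfII genes were close to boundaries or far from them. TfIIS, whose product restarts polymerase II after backtracking, stood at the strongest boundary within 1 kb of any member, with a strength of 2.40 and rank 238 of 1930. That bin, at 15060801 to 15061200 on 2L (dm6), began 44 bp beyond the right end of TfIIS and lay in a gap of 898 bp before the shared left end of solo and vas, the latter the germline helicase gene vasa. A weaker boundary (1.29) lay 919 bp from the other end of TfIIS. TfIIA-S, the small subunit of TFIIA, is a gene of 673 bp that held a whole boundary bin of strength 2.15 within its body, with 335 bp to Pli on its left. TfIIEalpha lay 38 bp from a boundary of 1.43. TfIIA-L, encoding the large subunits of TFIIA, also contained a whole boundary bin, but 2089 bp from its nearer end. These were the only members with a whole bin inside the gene (2.53%, beside 3.42% of all genes). The other 5 lay 11.7 to 75.5 kb away, TfIIFalpha nearest and the TFIIA small-subunit paralog TfIIA-S-2 farthest, with TfIIB at 22.9 kb, TfIIEbeta at 24.9 kb and TfIIFbeta at 69.8 kb.

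**Figure D2:**
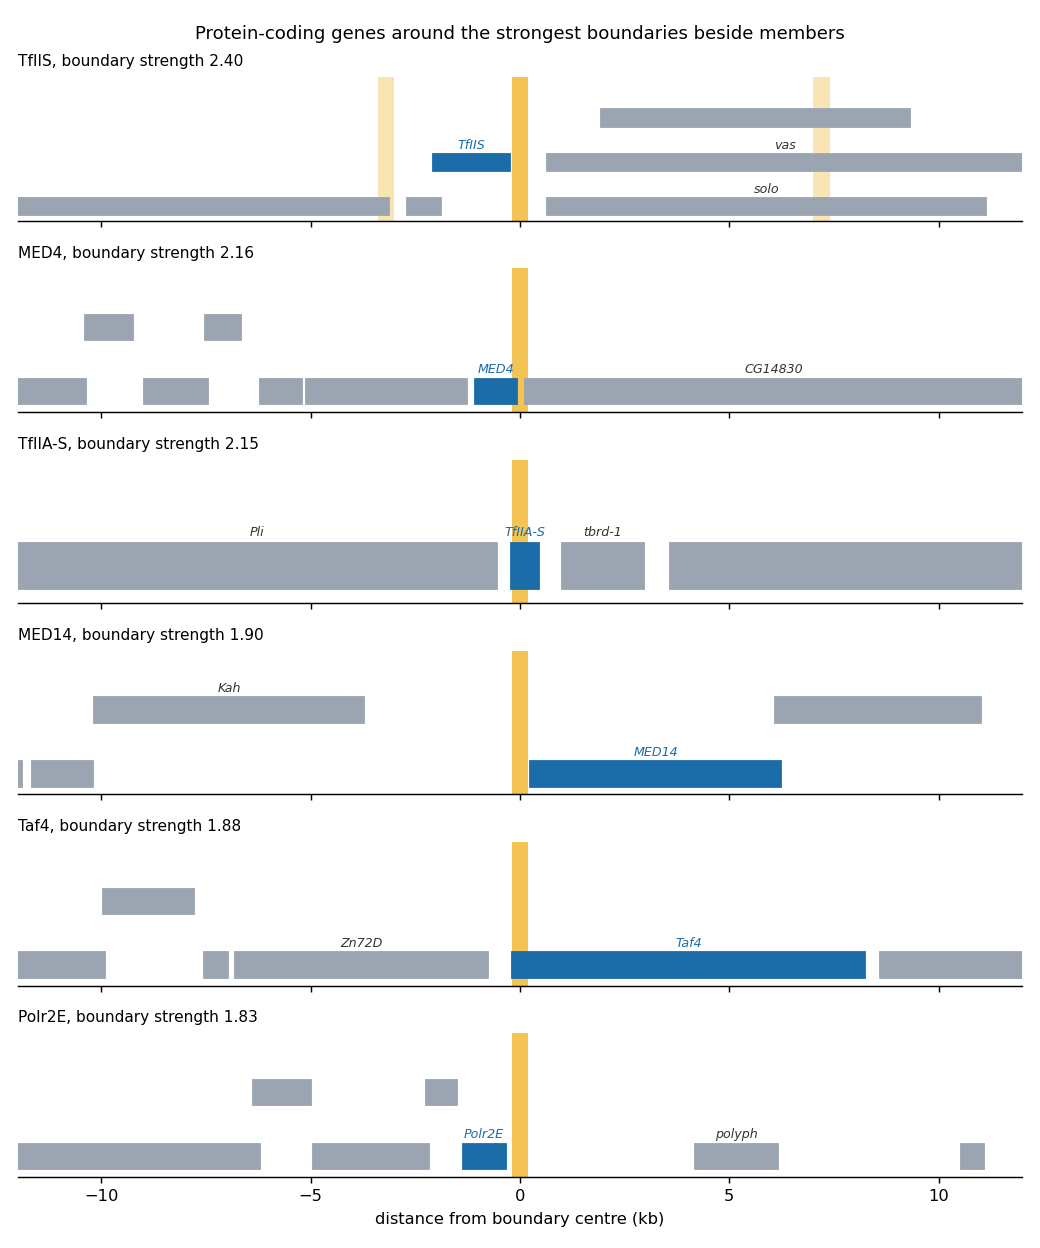
Protein-coding genes within 12 kb of the boundaries beside TfIIS, MED4, TfIIA-S, MED14, Taf4 and Polr2E, the 6 members at the strongest boundaries, in kb from the boundary centre. Blue bars are members, grey bars other genes, the dark yellow band is the 400 bp boundary bin and pale bands are other listed boundaries. The bin lies in the gap beside TfIIS, MED14 and Polr2E, inside TfIIA-S and over an end of MED4 and Taf4.

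Of the polymerase genes, 6 of 30 (20.0%) were at boundaries, a share near the 18.2% of all genes. Polr2E (141 bp, strength 1.83) and Polr2F (end inside the bin, 1.55) encode subunits that all 3 polymerases share. The other shared subunits, Polr2L, Polr2H and Polr2K, lay 62.3, 75.7 and 151.0 kb away. Polr2I (289 bp, 1.63) encodes a small subunit at the edge of polymerase II. Its boundary overlapped the end of su(Hw), the gene of an insulator protein, which ended 499 bp before Polr2I. For polymerase I, Polr1H had an end inside a boundary of 1.63, with 266 bp between it and tsl, a gene of the terminal patterning system, and Polr1E was 995 bp from a boundary of 1.63. For polymerase III, Polr3E was 840 bp from a boundary of 1.64 that overlapped siz.

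The 6 genes of the largest and second-largest subunits, which form the catalytic cleft, had no boundary within 1 kb. The share of all genes was 18.2%, and with only 6 genes this count does not set them apart from it. Polr3A was nearest at 1.76 kb, followed by Polr2A at 9.68 kb, Polr3B at 11.0 kb, Polr1B at 13.2 kb and Polr1A at 17.2 kb. Polr2B, at 156.7 kb, was the farthest of all 79 genes from a listed boundary. The next farthest were Polr2K (151.0 kb), MED24 (119.0 kb), Taf12L (110.1 kb) and MED10 (100.1 kb). This grouping was also made after the values had been seen.

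The boundaries beside these genes had a median strength near that of all boundaries. The 22 genes had 23 boundaries within 1 kb of an end, since TfIIS had one on each side and no boundary served more than 1 member. Their strength ran from 1.26 to 2.40 with a median of 1.63, beside 1.61 for the 1407 boundaries near any protein-coding gene end and 1.64 for all 1930. A strength of at least 2 was reached at 3 of the 23 (13.0%), those of TfIIS, MED4 and TfIIA-S, beside 18.9% of the boundaries near any gene end. Counted only at boundaries of at least the median strength, 10 of the 79 genes remained, and 1136 of all 13922 protein-coding genes (8.16%).

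Most of these boundaries had an end of another gene beside them, as did most boundaries near any gene end. A protein-coding gene other than the member had an end within 1 kb at 19 of the 23, and the gap between the member and the next gene beyond the boundary had a median of 499 bp. The bin overlapped the member at 9 boundaries, another gene at 12 and both at 4, and touched no protein-coding gene at 6 (26.1%, beside 19.7% of the boundaries near any gene end). The 4 with no other gene end within 1 kb (17.4%, beside 25.4% of the boundaries near any gene end) were those of MED14, Polr2E, Taf1 and TfIIEalpha. The median number of protein-coding genes with an end within 1 kb was 2 in both sets. Several neighbours across the boundary have their own general roles, such as Vps35 of the retromer beyond MED16 and the nucleoporin gene Nup75 beyond MED9. Others are developmental or tissue genes, such as tsl beyond Polr1H.

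The 79 genes are short and closely packed. Their median length was 1330 bp, beside 2163 bp over all protein-coding genes, and 77 of them (97.5%) had another protein-coding gene within 500 bp, beside 80.4% of all genes. Over all protein-coding genes, the share at boundaries moved with gene length: 25.1% of genes above the median length had one within 1 kb, but 11.3% of genes up to it. Among members, 14 of the 52 short genes (26.9%) and 8 of the 27 long ones (29.6%) did. The members' share thus stood farther above the background among short genes than among long ones, a difference that was not tested. Gene density gave another split. In the sparse class of up to 4 other gene ends within 5 kb, 8 of 19 members (42.1%) were at a boundary beside 16.3% of all genes. In the middle class of 5 to 7 ends it was 9 of 29 (31.0%) beside 21.7%, and in the dense class of 8 or more ends 5 of 31 (16.1%) beside 17.4%.

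**Figure D3:**
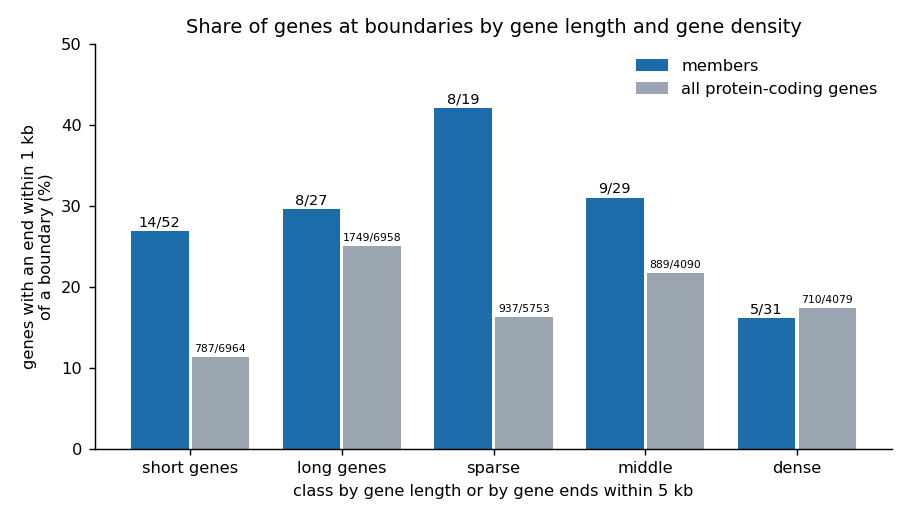
Share of genes with an end within 1 kb of a boundary, in percent, for members (blue) and all protein-coding genes (grey), in classes of gene length (up to or over 2163 bp) and of gene density (up to 4, 5 to 7, or 8 and more other protein-coding gene ends within 5 kb). Numbers over the bars are genes at a boundary over genes in the class. The blue bar is higher in 4 classes and lower in the dense class (16.1% beside 17.4%).

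The counts by arm rested on few members each and are a description only. On 3L, 9 of 19 members were at a boundary, where the share of all genes of the arm was 17.8%. On 2L it was 1 of 15 (TfIIS), beside 16.3%, and on X 1 of 8 (Taf9), beside 22.3%. On 2R, 4 of 10 were, beside 18.5%, and on 3R 7 of 25, beside 17.3%. Neither Taf3 nor MED26 on chromosome 4 was, beside 13.8% of the genes there.

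Domains, the stretches between neighbouring boundaries, had a lower median size around these genes than around all protein-coding genes. Counted once each, whatever genes they held, the 1895 domains had a median of 36.4 kb. The domain that held the gene midpoint had a median of 89.4 kb and quartiles of 27.8 and 169.0 kb over 78 members, beside a median of 112.8 kb and quartiles of 52.4 and 206.4 kb over all protein-coding genes. The midpoint of TfIIA-S lay in a boundary bin, so that gene was given no domain. In domains of up to 30 kb lay 22 members (27.8%), beside 14.8% of all genes, and in domains of 100 kb or more 36 (45.6%), beside 54.1%. The size of a domain and the distance to its edge are tied, so these values are no separate evidence. The smallest domain, of 2.80 kb, held the midpoint of TfIIS. It was followed by those of Polr3D (6.40 kb), MED21 and Polr2I (7.20 kb each) and TfIIA-L (10.0 kb). The largest were those of MED17 (388 kb), Taf12L (347.2 kb), Polr2B (328 kb), Polr2K (315.2 kb) and TfIIA-S-2 (300.8 kb). By complex, the median was 48.0 kb for TfII genes, 62.8 kb for Mediator, 88.0 kb for polymerase II, 112.8 kb for both Taf and polymerase III genes and 123.2 kb for polymerase I.

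**Figure D4:**
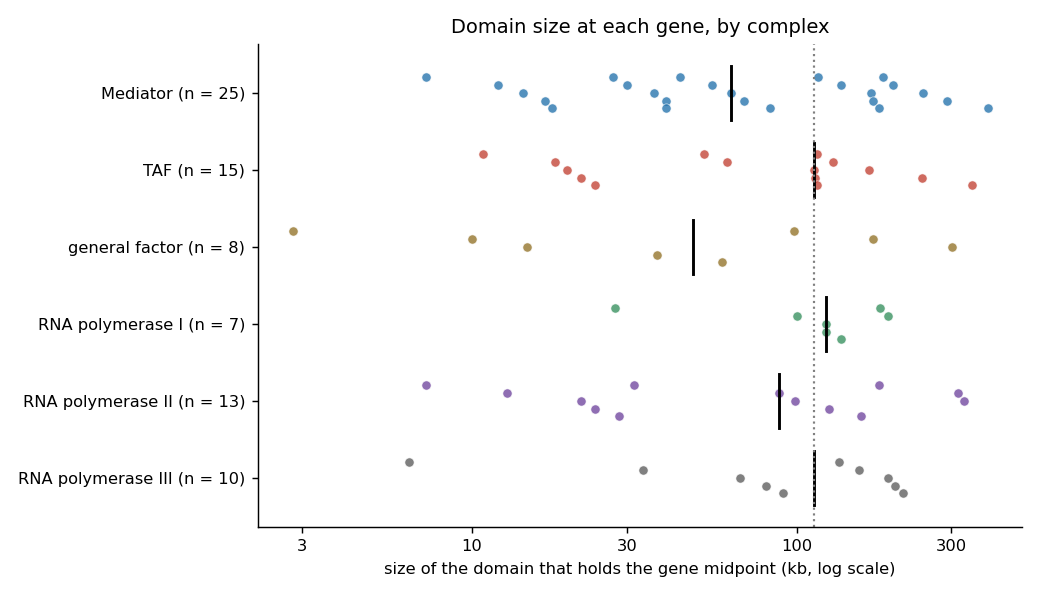
Size of the domain that holds the midpoint of each gene, in kb on a log scale, by complex. Each point is 1 of 78 genes, black bars are medians and the dotted line is the median of all protein-coding genes (112.8 kb). Each complex spans both small and large domains, from 2.80 kb at TfIIS to 388 kb at MED17.

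The 78 genes lay in 75 of the 1895 domains of the compared arms, and 3 domains held a pair. How often as many other genes share a domain was not counted. Taf10b and Taf10, paralogs 44 bp apart on 2L, shared a domain of 115.6 kb with 29 protein-coding genes. MED7 and TfIIFbeta, 5589 bp apart on 3R, shared one of 171.6 kb. Taf5 and Polr2E lay 18.4 kb apart in a domain of 24.0 kb on 2R that held 10 genes, with boundaries of 1.95 on the side of Taf5 and 1.83 on the side of Polr2E. Other neighbours were parted by boundaries. MED14 and MED30, 53.7 kb apart, had 1 of 1.72 between them. The run of MED17, Polr2D and Polr1E on 3R had 2 boundaries in each of its gaps of 61.6 and 44.7 kb.

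Few of these genes were near a loop anchor. An anchor lay within 5 kb of an end of 3 of the 79 genes (3.8%), where the share of all genes was 4.96%, and within 1 kb of 1 gene (1.27%, beside 2.14%). The median distance to an anchor was 178.6 kb, beside 129.5 kb over all protein-coding genes. No member lay whole between the anchors of a loop, as 3.15% of all genes did.

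The member within 1 kb was Polr1D, whose product is shared by polymerases I and III. Its right end lay inside the anchor at 19135201 to 19135600 on 2L, and the loop of 23.2 kb had a value of 20.3, rank 66 of 313. Both anchors also lay within brat, the gene of a translational repressor that overlaps the first anchor together with Polr1D. For Taf2, a TFIID subunit, an anchor lay inside the gene 1590 bp from its nearer end and was joined over 16.0 kb to Ciz1 with a value of 4.71, rank 270. For MED11, an anchor 2656 bp away was joined over 58.4 kb to a site at Chmp1 and Cyp12c1, with a value of 5.44. Within 10 kb of an anchor were 5 members (6.33%), beside 8.09% of all genes, the further ones being Polr2K (7.28 kb from an anchor, loop value 5.14) and MED26 (8.12 kb, 5.04). The loop near MED26 had both anchors inside bt. When only loops at or above the median value were counted, Polr1D alone was within 5 kb of an anchor, as were 2.1% of all genes. None of the 5 loops had a listed boundary between its anchors, a share that was not counted over all 313 loops. Polr1D, Taf2 and MED11 were themselves 54.8, 29.2 and 74.2 kb from the nearest boundary.

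Further genes of the same machinery were taken from a list of other symbols, 46 genes after 3 that are members under another name were removed. An end lay within 1 kb of a boundary for 17 of the 46 (37.0%), beside the 18.2% of all genes. Pausing and elongation factors made up 10 of the 17, out of 17 such genes on the list. They were Spt6 (strength 2.04), Spt5 (2.15), CycT (2.32) of the P-TEFb kinase, Nelf-A (1.53) and Nelf-E (1.90) of the pausing factor NELF, Su(Tpl) (1.53), the fly ELL gene, Ctr9 (1.49), Rtf1 (1.47) and hyx (1.56) of the Paf1 complex, and dre4 (1.75) of the histone chaperone FACT. The other 7 lay 1.89 to 41.8 kb away, in order atms, spt4, NELF-B, TH1, Atu (8.06 kb), Cdk9 (29.7 kb) and Ssrp (41.8 kb). Cdk9 is the partner of CycT in P-TEFb and Ssrp that of dre4 in FACT, so in neither pair were both genes at a boundary. Partners in other complexes were, such as Nelf-A with Nelf-E, though NELF-B and TH1 were not. The division into roles was made after the values had been seen.

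Among initiation factors of that list, the TATA-binding protein gene Tbp was 992 bp from a boundary of 1.51, and its relatives Trf2 and Trf were 1.67 and 8.85 kb away. Trf began 46 bp beyond MED20 and shared its domain of 39.6 kb. Of 10 TFIIH genes, the helicase gene hay (1.95) and Tfb5 (1.62) were at boundaries (20.0%, beside 18.2% of all genes). Of the 4 genes of the Mediator kinase module none was, with CycC at 2.60 kb, skd at 6.97 kb, Cdk8 at 16.1 kb and kto at 42.6 kb. With only 4 genes, that count does not set the module apart from all genes. TAF1B (2.30) and TAF1C-like (1.63), named for factors of polymerase I initiation, were at boundaries, as were Hel89B (2.30), a TBP-removing ATPase gene, and mia (1.47), a testis TAF gene. For scale, by the same count 59 of 92 cytoplasmic ribosomal protein genes (64.1%) and 10 of 48 proteasome genes (20.8%) were within 1 kb of a boundary. These differences between lists were not tested.

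**Figure D5:**
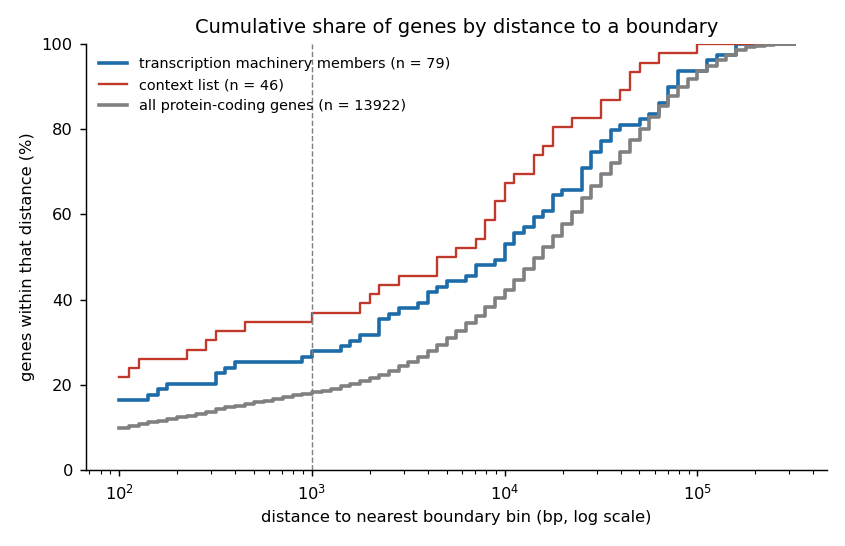
Share of genes, in percent, with an end within a given distance of a boundary bin (bp, log scale) for the 79 members, the 46 other machinery genes and all 13922 protein-coding genes. The dashed line marks 1 kb, where the shares were 27.8%, 37.0% and 18.2%, and the curves of members and all genes meet beyond about 50 kb.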

How the data were processed

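Micro-C reads of 50 bases per mate were, per the submitters' processing notes, mapped with BWA (version 0.7.17) onto dm6. Boundary strength and loop value are scores deposited by the authors, whose scale and matrix normalization are not stated. Column names of the loop file are those of the SIP caller, per the file headers. Whether the 2 control samples were pooled before calling is not given in the sources used here.

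Of 2034 boundary entries, 14 exact repeats were removed and 90 on Y were left out. Genes came from a RefSeq table of Release 6, the assembly of dm6. Distance was taken from either gene end to the bin edge, 0 inside. A domain is the stretch between consecutive bins. The distance steps were tested on simulated data. Python 3.11.15, pandas 2.3.3 and numpy 2.4.6 were used.

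Named are members within 1 kb of a boundary or 5 kb of an anchor, those farthest from a boundary and those in the smallest and largest domains. Further genes were named after their values were seen, to complete a group. A withheld item is not reported here. Members and lists were chosen with earlier results of these data known. The list of other machinery genes was matched by symbol or synonym, with Atu and Taf12L set by hand. Alternatives changed the distance, the strength or value required, the arms, the neighbours counted and the gene length.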

Additional observations from a re-analysis of the deposited data

How the results depend on the processing

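The count of 22 members at boundaries stayed within 1.5 times with 500 bp (20) or 2 kb (25). It was 21 without X, which held 1 of the 22. Counting boundaries gave 23, those beside the same 22 genes. Neither of these 2 settings could move the count far. For 500 bp, 2 kb and without X, the shares of all genes were 15.9%, 21.6% and 17.4%, which are percents and not counts. The count of members was 8 with the end required inside the bin, 10 with boundaries of at least the median strength, and 14 and 8 among short and long genes. The first narrows the distance to 0, the second leaves out bins and the last leave out genes. The counts by gene length and of boundaries were added after seeing the data. With boundaries of at least the median strength, the median distance was 29.2 kb (42.4 kb over all genes) and the median domain 218.2 kb (252.4 kb). Without X, the domain median was 81.6 kb (116.0 kb over all genes). The count near anchors was 1 within 1 kb, 5 within 10 kb (8.09% of all genes) and 1 for loops at or above the median value (2.1%). The median strength at members was 1.63 within 500 bp and 1.58 within 2 kb. The gap to the nearest neighbour had a median of 0 bp, and of 4 bp with protein-coding neighbours. Counts from gene starts alone and promoter motifs were not run, as no strand or sequence was used here. No paired analysis was possible because the lists carry no column per sample. Depth sets no limit that can be given, since no read counts were used.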
